A study of Mus musculus with 18 samples.

Results

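The 32 genes described here carry pyruvate into the mitochondrion and run the tricarboxylic acid (TCA) cycle. They were taken from the deposited table of read counts by gene symbol, a rule that uses no measured value, though the list was chosen with earlier results of these data known. All 32 of them were found among the table's 55536 genes. All 32 also passed the low-count filter that left 17590 genes for testing. The libraries came from pancreatic islets of male mice, 17 weeks old, whose strain is given as NOD.CB17-Prkdcscid/NCrCrl, also called NOD.SCID. Every group carried the Prkdc scid mutation and lacked mature T and B cells, as the strain is known to. The mice were Slc30a8 knockout (labelled ZNT8 -/-, here KO), heterozygous (ZNT8 +/-, here Het) or wild type (WT); the gene's product, ZnT8, carries zinc into the granules that store insulin. Islets were cultured overnight and kept for a further 24 h with a mixture of cytokines, or in medium alone; the mixture held TNF-α at 100 pg/ml, IL-1β at 150 pg/ml and IFN-γ at 10 pg/ml. The 6 groups are therefore KO with cytokines, KO untreated, Het with cytokines, Het untreated, WT with cytokines and WT untreated, with 3 libraries each. The title of the series names mitochondrial respiration, to which the TCA cycle supplies electrons.

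In a beta cell most pyruvate from glucose enters the mitochondrion through the carrier formed by Mpc1 and Mpc2. The pyruvate dehydrogenase complex then turns it into acetyl-CoA, or pyruvate carboxylase (Pcx) turns it into oxaloacetate; both routes run strongly in islets. Kinases Pdk1 to Pdk4 switch the dehydrogenase complex off by phosphorylation and the phosphatase Pdp1 switches it on again. The cycle passes electrons to the respiratory chain, and malic enzymes and cytosolic dehydrogenases carry part of its carbon back out, a route long linked to insulin secretion.

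The libraries held 22990164 to 29946680 reads assigned to genes, and the 32 genes together took 0.252 to 0.271% of them. Slc30a8, read as a check of the labels, had 20.8, 23.2 and 20.0 CPM (reads scaled to a common library size) in KO islets with cytokines and 47.9, 55.9 and 44.0 CPM in untreated KO islets. Het islets had 32.1, 34.3 and 56.6 CPM of it with cytokines and 126, 95.7 and 111 CPM untreated, and WT islets 34.5, 43.7 and 46.4 CPM with cytokines and 98.8, 123 and 125 CPM untreated. Its KO levels lay below every WT level of the same treatment (log2 fold change -1.23 ± 0.19 untreated and -0.96 ± 0.20 with cytokines, edgeR adjusted p = 0.00495 and 0.0148). The change in Het against WT islets was -0.06 untreated and -0.02 with cytokines, and reads remained in KO islets; which exons the allele lacks is not stated by the labels. The call with cytokines was lost without KO replicate 1 or 2 or WT replicate 2 or 3 with cytokines (log2 fold change -1.02 to -0.87). The 10 beta cell markers listed were all present, with sums given beside the cytokine results, and the 7 lymphocyte markers listed summed to 0.942 to 20 CPM, with Ms4a1 at 0 throughout. The highest lymphocyte sum was in untreated KO islets (1.87 to 20 CPM, mean 8.03 ± 10.4, SD, n = 3), and no other group went above 3.04 CPM. The 2 lymphocyte markers tested fell with cytokines in KO islets, and 1 fell in WT islets. The label of a group names 3 mice but does not tie a library to a mouse, and p-values therefore measure the spread among these samples, which may be technical. Comparisons that use the same group of libraries, such as cytokines in WT islets and KO against WT islets, share those libraries and are not independent of each other.

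As reads per kb of annotated exon, scaled to library size, Mdh1 and Mdh2 (the cytosolic and mitochondrial malate dehydrogenases) and Ogdh (a subunit of 2-oxoglutarate dehydrogenase) had the highest levels in untreated WT islets. They stood at 74.3 ± 4.0, 57.4 ± 0.902 and 53.9 ± 2.29 reads per kb on that scale, which divides by the library total as CPM does (SD, n = 3). Pcx stood at 25.7 ± 2.8, close to Pdha1 (the catalytic alpha subunit of pyruvate dehydrogenase) at 23.9 ± 0.582. The kinases were lower, with Pdk4 at 8.61 ± 1.07, Pdk3 at 7.51 ± 0.0813, Pdk2 at 5.68 ± 0.174 and Pdk1 at 4.88 ± 0.406, and Pdk4 and Pdk3 overlapped within their spread. Me3, the mitochondrial NADP malic enzyme, was lowest at 0.0685 ± 0.0271. Lengths are the union of all annotated exons, so a gene with rarely used exons, such as Me3 or Dlst, reads lower than its main transcript would.

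**Figure D1:**
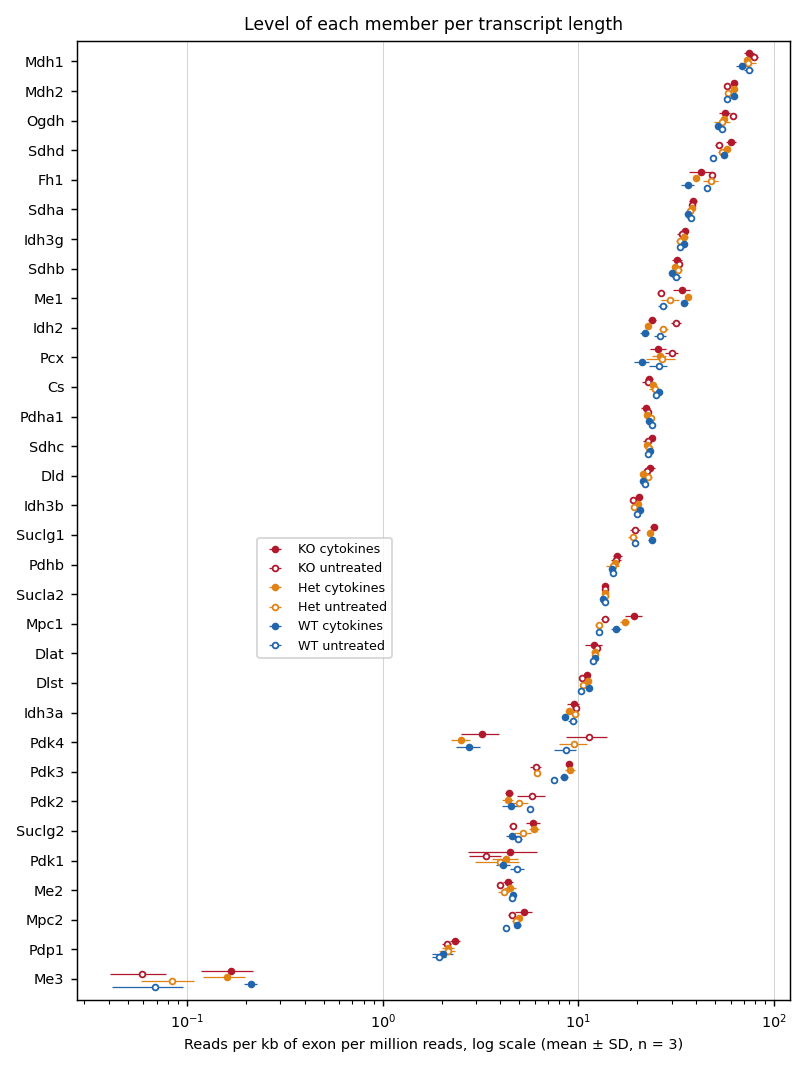
Level of each of the 32 genes in the 6 groups, as CPM per kb of annotated exon on a log axis; points are means and bars SDs over 3 libraries, filled with cytokines and open untreated. Mdh1 is highest at 74.3 and Me3 lowest at 0.0685 in untreated WT islets, and Pdk4 shows the widest gap between filled and open points.

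With cytokines, 12 of the 32 genes changed in KO islets, 8 in Het islets and 12 in WT islets, by edgeR's quasi-likelihood test at an adjusted p under 0.05 over all 17590 genes. Of all genes tested, 31.3% changed in KO, 24.5% in Het and 25.7% in WT islets, so the shares of these genes, 37.5%, 25% and 37.5%, lie near the background. In KO islets 9 rose and 3 fell (15.3% and 16% of all genes), in Het islets 5 rose and 3 fell (12.7% and 11.7%), and in WT islets 8 rose and 4 fell (12.5% and 13.1%). Their median log2 fold change was 0.05 in KO, 0.03 in Het and 0.00 in WT islets, against -0.03, -0.03 and -0.01 over all genes. The 3 libraries with cytokines lay wholly above or below the 3 without for 14 of the 32 genes in KO, 13 in Het and 17 in WT islets, against 42.6%, 35.1% and 46.5% of all genes. The same 7 genes passed in all 3 genotypes in 1 direction, against 16.1% of all genes: Pdk3, Mpc1, Suclg1, Me1 and Me3 rose (5 of 32, against 8.65% of all genes), and Pdk4 and Idh2 fell (2 of 32, against 7.49%). A further 7 passed in 1 or 2 genotypes and 18 in none. In whole islets, fewer cells of a type and less RNA per cell cannot be told apart. With cytokines 6 of 10 beta cell marker genes also fell in each genotype, and 1 of the 10 rose in KO islets. The median log2 fold change of the 10 was -0.9, -0.77 and -0.77 in KO, Het and WT islets. The summed level of those 10 markers was 161000 to 204000 CPM with cytokines against 187000 to 233000 CPM untreated in KO islets. It was 154000 to 182000 against 163000 to 201000 CPM in Het and 144000 to 163000 against 167000 to 192000 CPM in WT islets; none of the 10 was at 0, and their part in the results was not tested. Marker genes of alpha cells fell for 3 of 8 in each genotype, those of delta and PP cells for 2, 1 and 3 of 5, and those of mesenchymal cells for 1, 6 and 2 of 9 in KO, Het and WT islets. Duct markers rose for 2 of 7 in KO and in WT islets and for 0 of 7 in Het islets. Their sum was 2990 to 3900 CPM with cytokines against 1310 to 1880 CPM untreated in KO islets, 3460 to 4550 against 1640 to 4880 CPM in Het and 3640 to 6660 against 1790 to 2800 CPM in WT islets, and its part in the results was not tested.

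**Figure D2:**
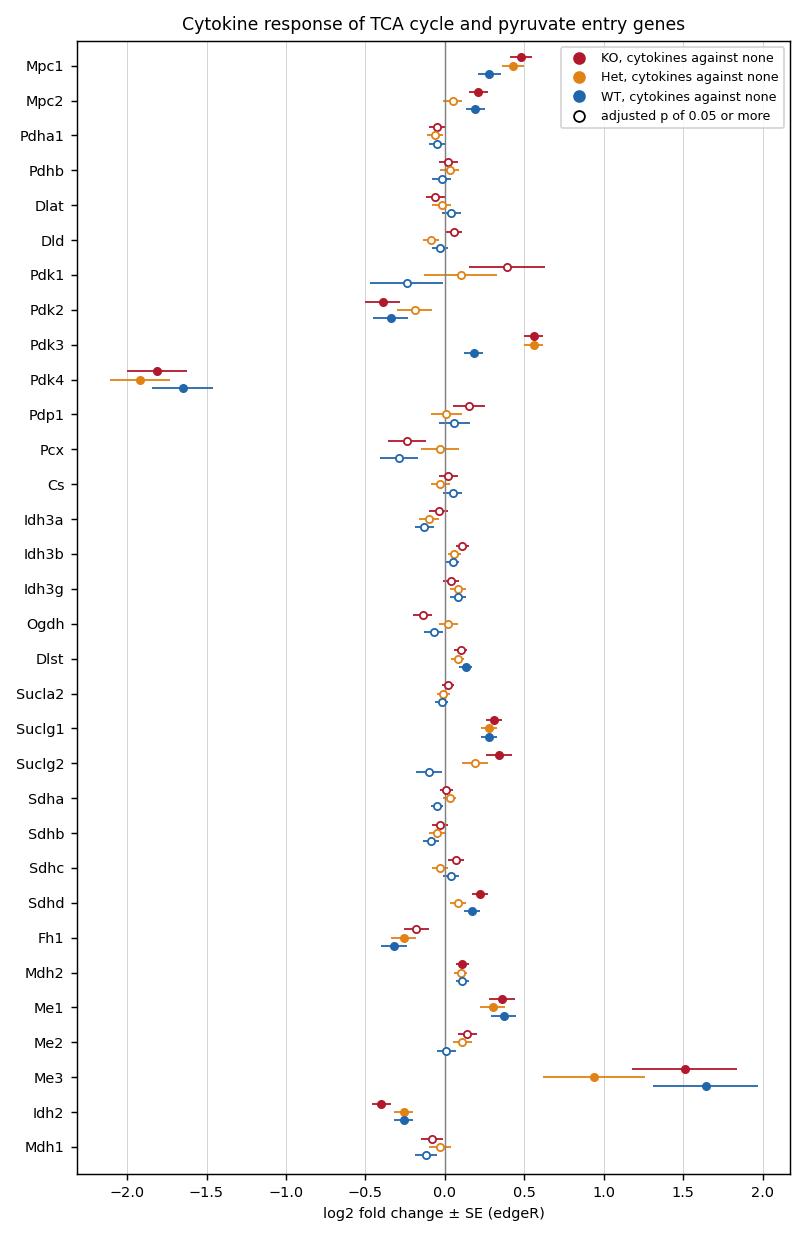
Log2 fold change with cytokines against none for each of the 32 genes (x axis), ± SE from edgeR, in KO (red), Het (orange) and WT islets (blue); filled points have an adjusted p under 0.05. Pdk4 lies at -1.81, -1.92 and -1.65, Me3 at 1.51, 0.94 and 1.64, and most of the other genes lie within 0.5 of 0.

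The largest change belonged to Pdk4 (ENSMUSG00000019577, chromosome 6, 5483351 to 5496309, minus strand; GRCm38 with GENCODE M21, as for all positions here), a kinase known for its rise in fasting, when it keeps pyruvate out of the cycle. Pdk4 had 13.7, 8.75 and 11.5 CPM in KO islets with cytokines, against 50.4, 35.8 and 33.2 CPM in untreated KO islets. Het islets had 7.71, 9.26 and 9.47 CPM of Pdk4 with cytokines, against 39.5, 28.7 and 31.9 CPM untreated. WT islets had 8.35, 9.59 and 11.0 CPM of Pdk4 with cytokines, against 31.6, 26.0 and 33.1 CPM untreated. Every library with cytokines lay below every library without, and the highest with cytokines was under the lowest without across all 3 genotypes. The log2 fold change of Pdk4 was -1.81 ± 0.19 in KO islets (edgeR adjusted p = 3.64e-06), -1.92 ± 0.19 in Het islets (3.13e-06) and -1.65 ± 0.19 in WT islets (1.59e-05). Its level with cytokines was 0.286, 0.264 and 0.319 times that without. Pdk2, the kinase most widely expressed across tissues, fell less: by 0.39 ± 0.11 on the log2 scale in KO islets (adjusted p = 0.0119) and by 0.34 ± 0.11 in WT islets (0.0338), with -0.19 ± 0.11 in Het islets (0.236). For Pdk2 the KO call was lost without KO replicate 1 of either treatment (log2 fold change -0.35 to -0.24). The WT call was lost without any 1 of the untreated WT libraries or WT replicate 1 or 3 with cytokines (-0.35 to -0.29).

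The stretch just before the start of Pdk4 and of Pdk2, the kinases whose reads fell, is given here from RefSeq's GRCm38.p6 annotation, 5′ to 3′ on the gene's own strand. The Pdk4 stretch ends at the base before the annotated gene, and the Pdk2 stretch at the base before RefSeq's start, short of the GENCODE gene's end at 95041354. Pdk4 is chr6:5496310-5496528 on the minus strand (219 bases, 58.9% G or C) and Pdk2 is chr11:95041372-95041621 on the minus strand (250 bases, 62.4% G or C). Capitals mark the only match to the motifs searched, the letters ACGTG of the core site bound by hypoxia-inducible factor, read on both strands, whose 2 overlapping matches make CACGTG.
Pdk4: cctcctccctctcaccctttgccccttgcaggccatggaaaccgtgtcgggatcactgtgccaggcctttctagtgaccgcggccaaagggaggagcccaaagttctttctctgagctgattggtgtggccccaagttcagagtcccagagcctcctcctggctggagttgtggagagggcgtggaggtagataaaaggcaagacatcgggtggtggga
Pdk2: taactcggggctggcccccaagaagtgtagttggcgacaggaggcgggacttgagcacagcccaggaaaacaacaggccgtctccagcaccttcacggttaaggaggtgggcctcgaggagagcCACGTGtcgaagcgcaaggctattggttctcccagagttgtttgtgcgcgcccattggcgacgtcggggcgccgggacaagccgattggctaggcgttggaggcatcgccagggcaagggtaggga

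The same motifs were searched on both strands of the 250 bases before RefSeq's start of the 28 genes of the 32 that the RefSeq promoter table holds. For some, such as Mpc1, Mpc2, Sucla2 and Me3, that window lies inside the GENCODE gene. ACGTG was found in 8 of the 28 (Pdhb, Pdk2, Pdk3, Pcx, Idh3g, Ogdh, Sdha and Mdh1), and 16.6% of all 27025 promoters of the same length hold it. The FoxO letters GTAAACA (3.09% of all promoters), the ERR half-site AAGGTCA (4.05%) and the STAT letters TTCNNNGAA (7.18%) matched none of the 28, and the NF-kB motif (3.75%) matched 1, Sdhb. These are matches of letters in a window and not shown binding sites.

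Pdk3 (ENSMUSG00000035232, chromosome X, 93764607 to 93832201, minus strand), a kinase expressed in fewer tissues than Pdk2, went the other way. Its levels were 22.7, 22.8 and 23.2 CPM in KO islets with cytokines, against 15.9, 14.4 and 16.2 CPM in untreated KO islets. In Het islets Pdk3 had 24.7, 23.4 and 21.9 CPM with cytokines, against 15.6, 15.5 and 16.4 CPM untreated. In WT islets Pdk3 had 20.6, 22.5 and 22.1 CPM with cytokines, against 19.0, 19.3 and 19.4 CPM untreated. The groups did not overlap in any genotype, and the gap between them was narrowest in WT islets. Pdk3 rose by 0.56 ± 0.06 on the log2 scale in KO islets (edgeR adjusted p = 2.81e-06), by 0.56 ± 0.06 in Het islets (4.06e-06) and by 0.18 ± 0.06 in WT islets (0.0402). The WT call was lost when any 1 of 7 libraries was left out: WT untreated replicate 1, 2 or 3, WT replicate 2 or 3 with cytokines, Het replicate 2 with cytokines or KO replicate 1 with cytokines. The log2 fold change was then 0.16 to 0.18 and the adjusted p 0.052 to 0.108. Pdk1, the kinase known as a target of hypoxia signalling, had 28.1, 25.8 and 49.9 CPM in KO islets with cytokines against 30.4, 21.1 and 27.6 CPM in untreated KO islets. Its within-group SD on the log2(CPM + 1) scale was 0.291, against 0.243 for Me3, whose low level that scale damps, and Pdk1 did not pass in any genotype (0.39 ± 0.24, 0.10 ± 0.23 and -0.24 ± 0.23 in KO, Het and WT islets). Pdp1, the activating phosphatase, did not pass either, with 0.15 ± 0.10, 0.01 ± 0.10 and 0.06 ± 0.10.

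The make-up of the kinase reads differed between treatments. Pdk4 gave 13.8 ± 3.35% of the reads of the 4 kinases in KO islets with cytokines and 39.5 ± 3.43% in untreated KO islets (SD, n = 3 each). Its share was 11.2 ± 1.98% with cytokines and 34.8 ± 4.87% untreated in Het islets, and 12.4 ± 0.955% with cytokines and 28.6 ± 2.13% untreated in WT islets. Pdk3 gave 28.2 ± 4.23% with cytokines and 15.7 ± 2.04% untreated in KO islets, 29.5 ± 0.89% and 16.6 ± 0.961% in Het islets, and 28.0 ± 0.86% and 18.3 ± 1.17% in WT islets. Pdk1 gave 40.9 ± 8.35% with cytokines and 26.4 ± 3.12% untreated in KO islets, 41.8 ± 3.06% and 32.1 ± 6.33% in Het islets, and 41.3 ± 1.42% and 36.0 ± 1.85% in WT islets. Pdk2 stayed between 16.6 and 18.4% in all 6 group means. The summed kinase reads were 7.81 ± 1.03 times those of Pdp1 in KO islets with cytokines and 10.5 ± 2.17 times untreated. The ratio was 8.13 ± 0.261 with cytokines and 9.98 ± 1.43 untreated in Het islets, and 8.58 ± 1.51 with cytokines and 12.1 ± 1.54 untreated in WT islets. These shares and ratios use reads not corrected for length and are given with no test.

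**Figure D3:**
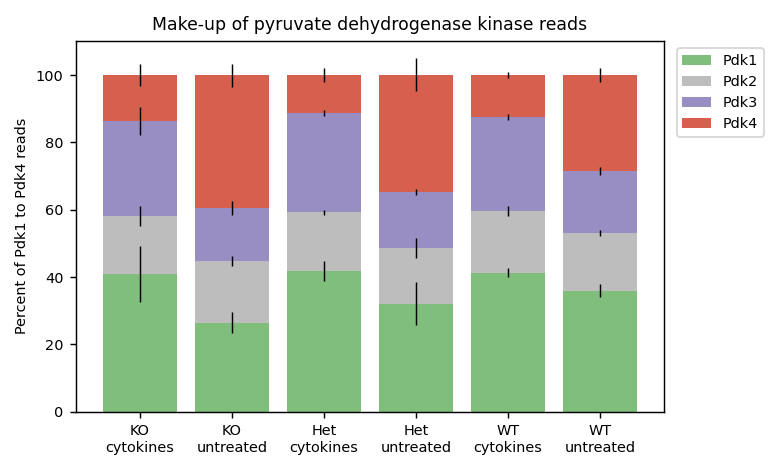
Percent of the summed reads of Pdk1 to Pdk4 that each kinase gives (y axis, from 0) in the 6 groups; each bar is the mean over 3 libraries and the black line at the top of each segment is that kinase's SD. Pdk4 takes 13.8, 11.2 and 12.4% with cytokines in KO, Het and WT islets and 39.5, 34.8 and 28.6% without.

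Of the pyruvate carrier's subunits, Mpc1 rose with cytokines in all 3 genotypes and Mpc2 in KO and WT islets. Mpc1 (ENSMUSG00000023861, chromosome 17, 8282904 to 8297661, plus strand) had 37.6, 44.6 and 37.7 CPM in KO islets with cytokines, against 28.4, 29.9 and 27.5 CPM in untreated KO islets. Het islets had 37.4, 33.7 and 36.5 CPM of Mpc1 with cytokines, against 27.7, 26.2 and 25.7 CPM untreated. WT islets had 30.5, 34.6 and 32.6 CPM of Mpc1 with cytokines, against 26.6, 27.4 and 26.2 CPM untreated. All libraries with cytokines were above all without, within each genotype and across them. The log2 fold change of Mpc1 was 0.48 ± 0.07 in KO islets (edgeR adjusted p = 6.62e-05), 0.43 ± 0.07 in Het islets (0.000243) and 0.28 ± 0.07 in WT islets (0.00711). Mpc1 shares 23.1% of its exon bases with 4930506C21Rik on the opposite strand and has a pseudogene, Mpc1-ps; no source used here gives the strand setting of the counting, and reads of that overlapping pair cannot be told apart. Mpc2, the other subunit, rose in KO islets (0.21 ± 0.06, adjusted p = 0.0197) and in WT islets (0.19 ± 0.06, 0.0429), and had 0.05 ± 0.06 in Het islets (0.621). The ratio of Mpc1 to Mpc2 reads was 1.03 ± 0.107 with cytokines and 0.854 ± 0.0212 untreated in KO islets, 0.98 ± 0.0407 and 0.752 ± 0.0222 in Het islets, and 0.91 ± 0.0841 and 0.85 ± 0.0321 in WT islets (SD, n = 3 each). The KO call of Mpc2 was lost without KO replicate 1 or 2 with cytokines or KO untreated replicate 3 (0.16 to 0.18), and its WT call without any 1 of 10 libraries, 5 of them from WT islets (0.16 to 0.21, adjusted p 0.0505 to 0.157). The other 5 were Het replicate 1, 2 or 3 with cytokines, Het untreated replicate 3 and KO untreated replicate 2.

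None of the 4 core genes of the pyruvate dehydrogenase complex passed in any genotype. Pdha1 and Pdhb (the alpha and beta subunits of the first enzyme), Dlat (the acetyl-transferring core) and Dld (the lipoamide dehydrogenase shared with the 2-oxoglutarate complex) had log2 fold changes of -0.09 to 0.06 with cytokines, each with an SE of 0.05 or 0.06. Over all 18 libraries Pdha1 lay at 77.4 to 91.1 CPM, Pdhb at 55.1 to 63.8 CPM, Dlat at 52.7 to 64.0 CPM and Dld at 76.5 to 90.2 CPM. Libraries with and without cytokines overlapped for each of the 4 in each genotype. Pdha1 shares 16.1% of its exon bases with Map3k15 on the opposite strand. Pcx had 124, 131 and 109 CPM in KO islets with cytokines against 152, 146 and 130 CPM in untreated KO islets, and its log2 fold changes of -0.24 ± 0.12, -0.03 ± 0.12 and -0.29 ± 0.12 in KO, Het and WT islets did not pass. The ratio of Pcx to Pdha1 reads was 1.48 ± 0.212 with cytokines and 1.68 ± 0.136 untreated in KO islets, 1.48 ± 0.145 and 1.45 ± 0.274 in Het islets, and 1.17 ± 0.0731 and 1.37 ± 0.124 in WT islets (SD, n = 3 each).

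Within the cycle, Suclg1 rose in all 3 genotypes. Suclg1 (ENSMUSG00000052738, chromosome 6, 73248382 to 73276911, plus strand), the subunit common to the ATP- and GTP-forming succinyl-CoA ligases, had 113, 116 and 106 CPM in KO islets with cytokines, against 95.0, 84.7 and 91.0 CPM in untreated KO islets. Het islets had 105, 107 and 108 CPM of Suclg1 with cytokines, against 90.2, 82.5 and 90.6 CPM untreated, and WT islets 108, 106 and 114 CPM with cytokines, against 91.5, 87.3 and 90.4 CPM untreated. The groups did not overlap, and the rise of Suclg1 was of like size throughout: 0.31 ± 0.05 in KO (edgeR adjusted p = 0.00024), 0.28 ± 0.05 in Het (0.000693) and 0.28 ± 0.05 in WT islets (0.000665). Suclg2, the GTP-forming partner, rose in KO islets by 0.34 ± 0.08 (adjusted p = 0.00381) and had 0.19 ± 0.08 in Het islets (0.0897) and -0.10 ± 0.08 in WT islets (0.402). Sucla2, the ATP-forming partner, had 0.02 ± 0.04, -0.01 ± 0.04 and -0.02 ± 0.04. The reads of Sucla2 were 2.03 ± 0.145 times those of Suclg2 in KO islets with cytokines and 2.53 ± 0.0874 times untreated. They were 1.98 ± 0.138 times with cytokines and 2.30 ± 0.298 times untreated in Het islets, and 2.52 ± 0.0976 times with cytokines and 2.39 ± 0.0345 times untreated in WT islets.

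Few of the remaining enzymes of the cycle passed the test. Cs (citrate synthase), Idh3a, Idh3b and Idh3g (the NAD isocitrate dehydrogenase), Ogdh, Sdha, Sdhb and Sdhc (subunits of succinate dehydrogenase) did not pass in any genotype, with log2 fold changes of -0.14 to 0.11. Sdhd, a membrane anchor of succinate dehydrogenase, rose by 0.22 ± 0.05 in KO islets (edgeR adjusted p = 0.00257) and by 0.17 ± 0.05 in WT islets (0.014), and had 0.08 ± 0.05 in Het islets (0.243); the WT call was lost without WT replicate 1 with cytokines or WT untreated replicate 2 (0.15 to 0.16). Dlst (the succinyl-transferring core of the 2-oxoglutarate complex) rose in WT islets by 0.13 ± 0.04 (0.016), a call lost without WT untreated replicate 3 (0.12), and had 0.10 ± 0.04 in KO islets (0.0532) and 0.08 ± 0.04 in Het islets (0.117). Mdh2 rose in KO islets by 0.11 ± 0.04 (0.044) and had 0.10 ± 0.04 in Het islets (0.0781) and 0.11 ± 0.04 in WT islets (0.0518). That KO call of Mdh2 was lost when any 1 of 12 libraries was left out (0.09 to 0.11, adjusted p 0.0534 to 0.173), those other than KO replicate 3 with cytokines, KO untreated replicate 1, WT replicate 2 with cytokines and the 3 untreated Het libraries. Fh1 (fumarase) fell by 0.26 ± 0.08 in Het islets (0.0276) and by 0.32 ± 0.08 in WT islets (0.00823), and had -0.18 ± 0.08 in KO islets (0.105). The Het call of Fh1 was lost without any 1 of the Het libraries other than untreated replicate 3 (-0.27 to -0.18).

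Among enzymes beside the cycle that handle NADPH, Idh2 fell and Me1 and Me3 rose. Idh2 (ENSMUSG00000030541, chromosome 7, 80094846 to 80115392, minus strand), the mitochondrial NADP isocitrate dehydrogenase, had 64.6, 61.6 and 58.4 CPM in KO islets with cytokines, against 84.3, 84.4 and 75.7 CPM in untreated KO islets. Het islets had 57.2, 57.9 and 61.1 CPM of Idh2 with cytokines, against 73.6, 71.7 and 66.1 CPM untreated. WT islets had 53.3, 59.3 and 56.3 CPM of Idh2 with cytokines, against 61.9, 70.4 and 70.0 CPM untreated. Every library with cytokines was below every untreated library of its genotype. Idh2 fell by 0.40 ± 0.06 on the log2 scale in KO islets (edgeR adjusted p = 0.000162), by 0.26 ± 0.06 in Het islets (0.00713) and by 0.26 ± 0.06 in WT islets (0.00716). The ratio of Idh2 to Idh3a reads was 1.29 ± 0.0436 with cytokines and 1.65 ± 0.0746 untreated in KO islets, 1.29 ± 0.0822 and 1.44 ± 0.0985 in Het islets, and 1.30 ± 0.0949 and 1.42 ± 0.0311 in WT islets.

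Of the malic enzymes, which turn malate into pyruvate, the cytosolic Me1 (ENSMUSG00000032418, chromosome 9, 86581371 to 86695953, minus strand) had 137, 138 and 115 CPM in KO islets with cytokines, against 103, 104 and 96.1 CPM in untreated KO islets. Het islets had 143, 139 and 136 CPM of Me1 with cytokines, against 99.2, 121 and 119 CPM untreated. WT islets had 135, 139 and 128 CPM of Me1 with cytokines, against 101, 110 and 99.6 CPM untreated. The groups did not overlap in any genotype, and Me1 rose by 0.36 ± 0.08 in KO (edgeR adjusted p = 0.00184), 0.30 ± 0.08 in Het (0.00892) and 0.37 ± 0.08 in WT islets (0.00203). Me3 (ENSMUSG00000030621, chromosome 7, 89632392 to 89854359, plus strand) rose more but from few reads, with 93, 43 and 56 reads in KO islets with cytokines against 31, 17 and 22 reads in untreated KO islets. Het islets had 44, 76 and 71 reads of Me3 with cytokines against 40, 43 and 23 reads untreated, and WT islets 79, 77 and 72 reads with cytokines against 16, 33 and 31 reads untreated. In CPM the groups did not overlap, and the log2 fold change of Me3 was 1.51 ± 0.33 in KO (adjusted p = 0.00238), 0.94 ± 0.32 in Het (0.0425) and 1.64 ± 0.33 in WT islets (0.00145). The Het call of Me3 was lost without any 1 of 8 libraries: Het replicate 2 or 3 with cytokines, Het untreated replicate 1 or 3, the 3 WT libraries with cytokines or WT untreated replicate 3 (0.70 to 1.02, adjusted p 0.0521 to 0.153). Me2, the NAD-linked mitochondrial malic enzyme, and Mdh1 did not pass, with 0.01 to 0.14 for Me2 and -0.12 to -0.03 for Mdh1.

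**Figure D4:**
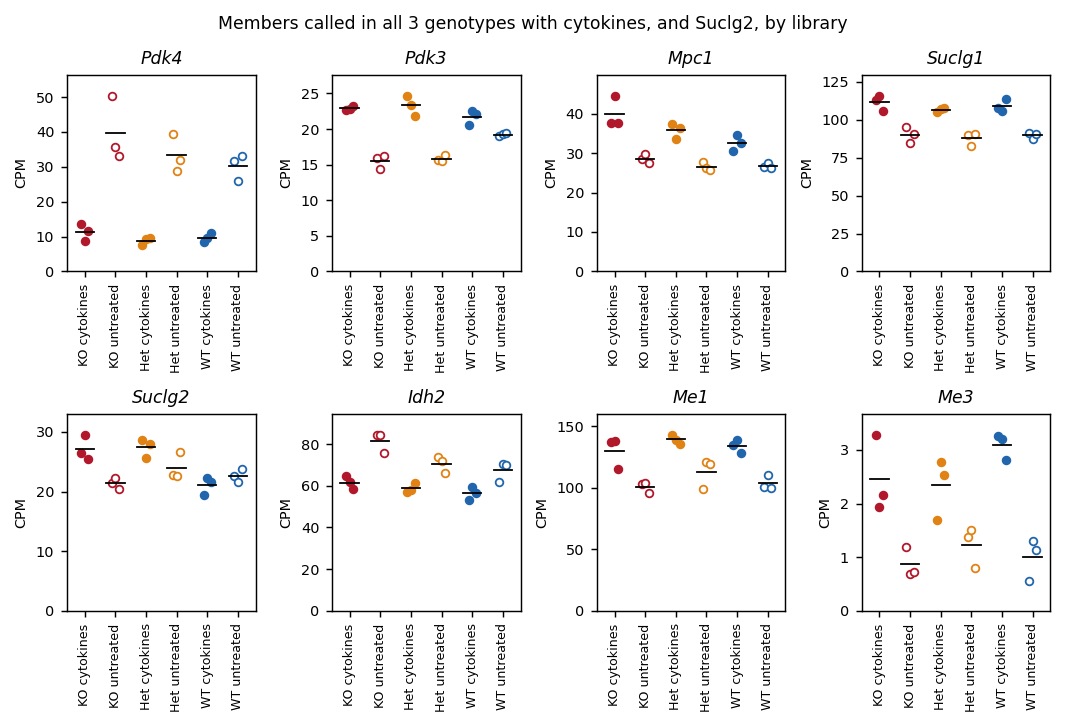
CPM (y axes, from 0) in each library of the 7 genes that changed with cytokines in all 3 genotypes and of Suclg2, by group; filled points are libraries with cytokines, open points untreated, and bars are means of 3. For all but Suclg2 the filled points of a genotype lie wholly above or wholly below its open points; for Suclg2 they do so in KO islets only.

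Between genotypes edgeR called few of the 32 genes. Between untreated KO and WT islets 2 passed (6.25%, against 2.94% of all genes tested), 1 higher in KO, Idh2 (0.534% of all genes), and 1 lower, Pdk3 (2.4%). The Idh2 levels given above, 84.3, 84.4 and 75.7 CPM in untreated KO islets against 61.9, 70.4 and 70.0 CPM in untreated WT islets, did not overlap and differed by 0.27 ± 0.06 on the log2 scale (edgeR adjusted p = 0.0343). Pdk3 had 15.9, 14.4 and 16.2 CPM in untreated KO islets, below the 19.0, 19.3 and 19.4 CPM of untreated WT islets, a log2 fold change of -0.31 ± 0.06 (adjusted p = 0.0133). The call of Pdk3 was lost without KO untreated replicate 1 or 2 or WT untreated replicate 1 (-0.32 to -0.26), and that of Idh2 without any of these, WT untreated replicate 2 or 3 or WT replicate 3 with cytokines (0.21 to 0.30). Without KO untreated replicate 1 or 2 or WT untreated replicate 1 the count was 0, and without Het untreated replicate 1 it was 4, with no share of all genes given for these fits. A fit restricted to these 6 libraries gave 0 as well. DESeq2 called 3 of the 32 (9.38%, against 5.28% of all genes), and limma with sample quality weights called 5 (15.6%, against 9.98%). Groups did not overlap for 12 of the 32 genes, against 25.7% of all genes.

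With cytokines 2 genes passed between KO and WT islets (6.25%, against 5.33% of all genes), both higher in KO, and 0 lower (1.52% and 3.8% of all genes). Suclg2 (ENSMUSG00000061838, chromosome 6, 95473009 to 95718800, minus strand) had 26.5, 29.5 and 25.4 CPM in KO islets with cytokines against 19.5, 22.3 and 21.6 CPM in WT islets with cytokines. The groups did not overlap, and the log2 fold change of Suclg2 was 0.36 ± 0.08 (edgeR adjusted p = 0.019). Mpc1 stood at 37.6, 44.6 and 37.7 CPM in KO islets with cytokines against 30.5, 34.6 and 32.6 CPM in WT islets with cytokines, also without overlap, a log2 fold change of 0.30 ± 0.07 (adjusted p = 0.0242). The call of Suclg2 was lost without KO replicate 1 or 2 or WT replicate 1 with cytokines (0.29 to 0.37), and that of Mpc1 without KO replicate 2 or WT replicate 1 or 3 with cytokines (0.21 to 0.30). The count was 0 without KO replicate 2 or WT replicate 1 with cytokines and 5 without KO replicate 3 with cytokines, with no share of all genes given for these fits. A fit restricted to these 6 libraries also gave 0. DESeq2 called 3 of the 32 (9.38%, against 9.02% of all genes), and limma with sample quality weights called 10 (31.2%, against 23.1%). Groups did not overlap for 8 of the 32 genes, against 30.5% of all genes.

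Markers of acinar cells, which make digestive enzymes and surround the islets, moved with genotype. All 18 on the list had lower levels in KO islets, set against WT islets of the same treatment, with a median log2 fold change of -2.22 untreated and -2.71 with cytokines, and none was at 0. Their summed level was 1600 to 2470 CPM in untreated KO islets against 8250 to 8540 CPM in untreated WT islets, and 773 to 1800 CPM in KO islets with cytokines against 5860 to 11000 CPM in WT islets with cytokines. Endothelial markers were lower in KO islets for 2 of 7 untreated (198 to 307 CPM summed in KO against 382 to 507 CPM in WT) and 3 of 7 with cytokines (144 to 250 against 325 to 487 CPM), and duct markers for 2 of 7 at each treatment. Beta cell markers had median log2 fold changes of 0.37 untreated and 0.38 with cytokines. Of the 10, 0 and 1 passed as higher. Their sums in KO against WT islets were 187000 to 233000 against 167000 to 192000 CPM untreated. With cytokines they were 161000 to 204000 against 144000 to 163000 CPM. Alpha cell markers had a median of 0.36 at each treatment, and 1 of 8 passed as higher untreated. No delta or PP, mesenchymal, macrophage or lymphocyte marker passed. The part of these cells in the levels of Idh2, Pdk3, Suclg2 and Mpc1 was not tested.

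Het against WT islets gave no call among the 32 genes at either treatment with edgeR. An unadjusted p under 0.05 was found for 4 of them untreated (6.97% of all genes) and 2 with cytokines (7.03%). DESeq2 called 0 untreated and 1 with cytokines (3.12%, against 0.33% of all genes), and limma 0 and 1 (3.12%, against 0.671%), in both cases Suclg2. Of all genes edgeR called 0.00569% untreated and 0% with cytokines. The 3 genes of smallest p untreated were Pdk3, Sdhd and Mpc2. Pdk3 averaged 15.9 ± 0.488 CPM in untreated Het islets and 19.2 ± 0.196 CPM in untreated WT islets (-0.28 ± 0.06 on the log2 scale, edgeR adjusted p = 0.248). Sdhd averaged 66.6 ± 2.96 CPM in Het and 60.2 ± 1.96 CPM in WT (0.15 ± 0.05, 0.502), and Mpc2 35.3 ± 1.54 CPM in Het and 31.5 ± 0.878 CPM in WT (0.16 ± 0.06, 0.613). With cytokines they were Suclg2, Pcx and Mpc1. Suclg2 averaged 27.4 ± 1.67 CPM in Het islets and 21.2 ± 1.44 CPM in WT islets (0.37 ± 0.08, 0.207). Pcx averaged 124 ± 9.9 CPM in Het and 100.0 ± 9.2 CPM in WT (0.30 ± 0.12, 0.662), and Mpc1 35.8 ± 1.92 CPM in Het and 32.6 ± 2.08 CPM in WT (0.14 ± 0.07, 0.725). For Pdk3 untreated and for Suclg2 with cytokines, the Het libraries lay on the same side of all WT libraries as the KO libraries did. Acinar marker sums in Het islets also lay below those in WT islets, at 2990 to 4530 against 8250 to 8540 CPM untreated and 2870 to 4420 against 5860 to 11000 CPM with cytokines. The median log2 fold change of the 18 markers in Het against WT islets was -1.19 untreated and -1.46 with cytokines, and their part in these levels was not tested.

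KO against Het islets gave no edgeR call either, with an unadjusted p under 0.05 for 2 genes untreated (14.6% of all genes) and 2 with cytokines (8.32%). DESeq2 called 0 at both, and limma 3 untreated (9.38%, against 13% of all genes) and 0 with cytokines. Of all genes edgeR called 0% untreated and 0.00569% with cytokines. Without Het untreated replicate 1 edgeR called 3 untreated, and the share of all genes is not given for that fit. Idh2 averaged 81.4 ± 4.99 CPM in KO islets and 70.5 ± 3.91 CPM in Het islets, both untreated (log2 fold change 0.21 ± 0.06, adjusted p = 0.194). Ogdh averaged 337 ± 10.6 CPM in KO and 297 ± 28.2 CPM in Het (0.18 ± 0.06, 0.218), and Me1 101 ± 4.38 CPM in KO and 113 ± 12.1 CPM in Het (-0.16 ± 0.08, 0.345). With cytokines Dld averaged 86.0 ± 5.42 CPM in KO and 78.5 ± 0.701 CPM in Het islets (0.13 ± 0.05, 0.514). Mpc1 averaged 40.0 ± 4.03 CPM in KO and 35.8 ± 1.92 CPM in Het (0.16 ± 0.07, 0.573), and Pdk4 11.3 ± 2.49 CPM in KO and 8.81 ± 0.964 CPM in Het (0.36 ± 0.19, 0.645).

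The difference between genotypes in the cytokine response was tested directly as an interaction. None of the 32 genes passed with edgeR, DESeq2 or limma in any of the 3 pairs of genotypes; of all genes edgeR called 0.0114% for KO against WT and 0% for the other pairs. The unadjusted p was under 0.05 for 2 genes in KO against WT (6.73% of all genes), 2 in Het against WT (4.79%) and 0 in KO against Het (5.73%). Pdk3 had the smallest p in both pairs with WT: its response was larger by 0.39 ± 0.08 on the log2 scale in KO islets (0.22 to 0.55 at 2 SE either side, edgeR adjusted p = 0.212) and by 0.38 ± 0.08 in Het islets (0.21 to 0.55, 0.881). Suclg2 followed, with 0.44 ± 0.11 in KO against WT (0.21 to 0.67, 0.322) and 0.29 ± 0.11 in Het against WT (0.07 to 0.52, 0.881). The third genes were Mpc1 in KO against WT (0.20 ± 0.10, 0.777) and Me3 in Het against WT (-0.70 ± 0.45, 0.881). KO and Het responses differed by 0.15 ± 0.07 for Dld (0.867), 0.13 ± 0.07 for Sdhd (0.867) and -0.16 ± 0.09 for Ogdh (0.872). The fall of Pdk4 differed by -0.16 ± 0.26 between KO and WT islets and by -0.27 ± 0.27 between Het and WT islets. So a response past the threshold in 1 genotype and not in another, as for Suclg2, Mpc2 or Fh1, was not shown to differ between them.

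A further 37 genes around the cycle were listed, also with earlier results of these data known: cofactor and assembly factors, carriers for its intermediates, transaminases and enzymes of neighbouring steps. Of these 35 were tested, and 12 changed with cytokines in KO (5 higher, 7 lower), 10 in Het (5 and 5) and 12 in WT islets (4 and 8), which is 34.3%, 28.6% and 34.3%. Of all genes tested 31.3%, 24.5% and 25.7% changed, so these shares lie near the background. Of all genes 15.3% rose and 16% fell in KO, 12.7% and 11.7% in Het, and 12.5% and 13.1% in WT islets. Nnt, the mitochondrial transhydrogenase that makes NADPH, had 1 to 12 reads per library and Pck1 0 to 2, and both failed the low-count filter. The largest change was in Acod1, which turns the cycle intermediate cis-aconitate into itaconate and is best known in activated macrophages. Acod1 had 351, 211 and 266 reads in KO islets with cytokines against 7, 5 and 10 in untreated KO islets. Het islets had 321, 205 and 333 reads of Acod1 with cytokines against 16, 32 and 37 untreated, and WT islets 215, 187 and 189 with cytokines against 51, 27 and 16 untreated. The groups were far apart in every genotype, with log2 fold changes of 5.29 ± 0.39 in KO (edgeR adjusted p = 5.8e-08), 3.43 ± 0.33 in Het (1.29e-06) and 2.80 ± 0.32 in WT islets (1.06e-05). Without cytokines, Acod1 was lower in KO islets, set against WT islets (-2.08 ± 0.44, 0.0199); none of the 35 genes passed as an interaction with genotype in any pair. The summed level of 8 macrophage markers was 232 to 295 CPM with cytokines against 150 to 378 CPM untreated in KO islets, 308 to 395 against 138 to 312 CPM in Het and 310 to 554 against 172 to 205 CPM in WT islets. Of the 8, 1 passed as higher in KO, 0 in Het and 1 in WT islets, and 0 as lower. Their median log2 fold change was -0.44, -0.15 and 0.31 in KO, Het and WT islets, and their part was not tested.

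Pck2, Gpt2, Got1 and Ogdhl, which handle carbon or amino groups at the edge of the cycle, fell in all 3 genotypes. Pck2, the mitochondrial enzyme that makes phosphoenolpyruvate from oxaloacetate, had 56.6, 60.3 and 51.7 CPM in KO islets with cytokines against 180, 201 and 165 CPM in untreated KO islets. Its log2 fold change was -1.70 ± 0.12 in KO (edgeR adjusted p = 5.57e-08), -1.46 ± 0.12 in Het (3.56e-07) and -1.29 ± 0.12 in WT islets (1.57e-06). The mitochondrial alanine transaminase Gpt2 had -1.17 ± 0.08, -1.09 ± 0.08 and -0.93 ± 0.08 in KO, Het and WT islets. The cytosolic aspartate transaminase Got1 had -0.82 ± 0.07, -0.64 ± 0.07 and -0.77 ± 0.07, while its mitochondrial counterpart Got2 rose in KO (0.17 ± 0.04, adjusted p = 0.00623) and Het islets (0.16 ± 0.04, 0.0128) and had 0.05 ± 0.04 in WT islets (0.458). Ogdhl, a relative of Ogdh, had -0.67 ± 0.09, -0.45 ± 0.09 and -1.01 ± 0.09, beside -0.14 ± 0.06, 0.02 ± 0.06 and -0.07 ± 0.06 for Ogdh itself. Slc25a10, the mitochondrial dicarboxylate carrier, rose by 0.58 ± 0.16, 0.49 ± 0.16 and 0.67 ± 0.16; its Het call was lost without Het replicate 1 or 2 of either treatment (0.29 to 0.52). Idh1, the cytosolic NADP isocitrate dehydrogenase, rose by 0.40 ± 0.05, 0.45 ± 0.05 and 0.48 ± 0.05, opposite in sign to the mitochondrial Idh2, and Lias, which makes the lipoyl group that the dehydrogenase complexes carry, fell by 0.39 ± 0.07, 0.33 ± 0.07 and 0.34 ± 0.07. Between untreated KO and WT islets 2 of the 35 passed (5.71%, against 2.94% of all genes), both lower in KO (Acod1 and the aspartate-glutamate carrier Slc25a13). With cytokines 1 did (2.86%, against 5.33% of all genes), Idh1, lower in KO by a log2 fold change of -0.20. Of all genes 2.4% were lower in KO untreated and 3.8% with cytokines. None passed for Het against WT or KO against Het islets with edgeR.

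**Figure D5:**
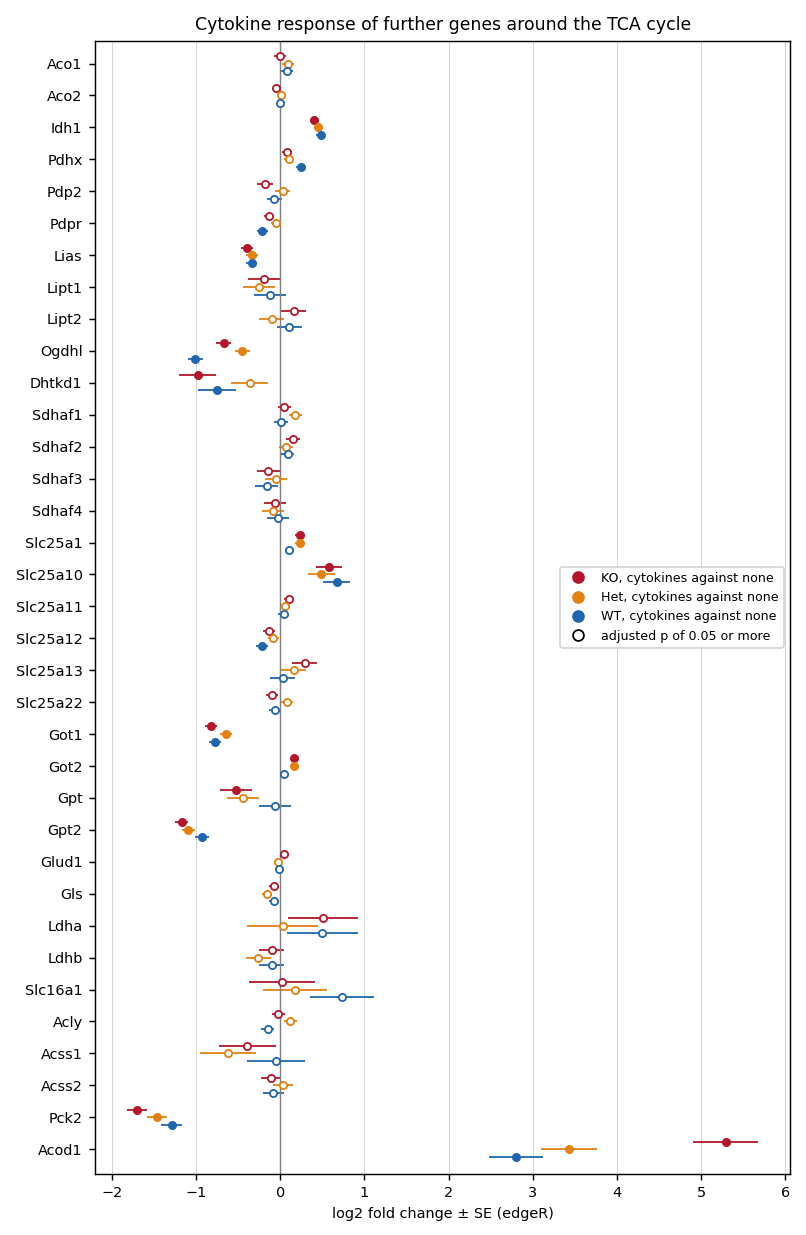
Log2 fold change with cytokines against none, ± SE from edgeR, for the 35 further genes around the cycle that were tested, in KO (red), Het (orange) and WT islets (blue); filled points have an adjusted p under 0.05. Acod1 lies at 5.29, 3.43 and 2.80 and Pck2 at -1.70, -1.46 and -1.29.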

How the data were processed

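Gene-level read counts of 18 islet libraries were used as the authors deposited them. FastQC 0.11.7, cutadapt 1.16, STAR 2.5.2a, featureCounts 1.6.2, DESeq2 1.30.0 and the genome build GRCm38 are named without a role per the submitters' processing notes; the library strand and annotation release are not given in the sources used here. Library totals were 22990164 to 29946680 reads, and their number limits the precision of low genes such as Me3.

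Groups and replicate numbers came from the labels. All 18 libraries entered 1 model with 6 groups (R 4.3.3, edgeR 4.0.16, quasi-likelihood test with robust spread, TMM scaling, filterByExpr with a minimum count of 10, 12 residual degrees of freedom). P-values were adjusted by Benjamini-Hochberg over all 17590 genes tested, with a threshold of 0.05, and are two-sided. The procedure was checked on simulated counts. CPM values were computed here from the counts and library totals scaled by TMM; ratios and kinase shares are ratios of CPM within a library. Levels per kb used GENCODE M21 exon unions (GRCm38), and promoters came from RefSeq (GRCm38.p6), with 28 of the 32 genes matched. No sample-level columns were left unmapped.

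Genes given library by library are the 6 of the 32 with the largest mean cytokine change among those passing in all 3 genotypes, Suclg1, which also passed in all 3, and those passing between genotypes; Pdk1 and Pcx in KO islets, chosen after their values were seen, are added; where none passed, the 3 of smallest p are given as group means. The 32 genes, the further 37 and the marker lists were chosen with earlier results of these data known. DESeq2 1.42.0, limma 3.58.1 with sample quality weights, size factors by RLE, testing with no low-count filter or with the genes of the authors' filtered table, a fit of only the groups compared, a replicate block and leaving out each library were tried. An edgeR fit without robust spread, a fit without the 2 libraries of lowest quality weight, a block by the number in the authors' metadata table and the relation of Pdk1 to other genes were chosen after seeing the data. Figures were drawn with Python 3.11.15 and matplotlib 3.10.9.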

Additional observations from a re-analysis of the deposited data

How the results depend on the processing

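The alternatives were run for the calls among the 32 genes and, where none passed, the 3 genes of smallest p. They were also run for Slc30a8 in KO against WT islets and, with cytokines against none, for Acod1, Pck2, Gpt2, Got1, Ogdhl and Slc25a10. They were not run for other values, such as Pdk1 or Pcx with cytokines. The calls of Idh1, Lias, Got2 and Slc25a13, and that of Acod1 between genotypes, were not run either. No result run under the alternatives changed direction. Under all of them, with cytokines, the calls of Pdk4, Mpc1, Suclg1 and Idh2 in every genotype kept their side of the threshold. So did those of Me1 and Me3 in KO and WT, of Pdk3 in KO and Het and of Suclg2 and Sdhd in KO islets. The call of Fh1 in WT islets kept it too, though it came close to the threshold. A fit of only the groups compared gave 5 calls among the 32 genes with cytokines in Het islets and 0 between KO and WT islets at either treatment. Limma with sample quality weights called 5 of the 32 in untreated KO against WT islets, 3 in untreated KO against Het islets and 10 in KO against WT islets with cytokines, beside 9.98%, 13% and 23.1% of all genes. DESeq2 called 3 in KO against WT islets untreated and 3 with cytokines, beside 5.28% and 9.02% of all genes. In Het against WT islets with cytokines limma called 1 and DESeq2 1, beside 0.671% and 0.33% of all genes. Without the 2 libraries of lowest quality weight (Het untreated replicate 1 and KO untreated replicate 3) 4 passed in untreated KO against WT islets and 4 in untreated KO against Het islets. The share of all genes is not given for this fit or for the fit of only the groups compared, so these counts are not set against a background. The causes were not tested.

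Leaving out 1 library at a time gave 9 to 14 calls with cytokines in KO, 6 to 9 in Het and 8 to 13 in WT islets. It gave 0 to 4 in untreated KO against WT, 0 to 5 in KO against WT with cytokines, 0 to 3 in untreated KO against Het islets and 0 in the other comparisons. Shares of all genes are not given for these fits, so their counts are not set against a background. Pdk3 in WT islets with cytokines also lost its call with no low-count filter (adjusted p = 0.122), with the authors' filtered genes (0.0512) and with the replicate block (0.0832), against 0.0402; Me1 in Het islets lost it in the fit of only the groups compared (0.0559). With the replicate number as a block, 11, 8 and 11 genes passed with cytokines in KO, Het and WT islets and 2 between KO and WT islets at each treatment. The share of all genes is not given for that block either. In each genotype the sample titles give a library with cytokines and an untreated library the same number. The deviations of libraries of the same number had correlations of 0.07, 0.26 and 0.50 in KO, 0.16, 0.52 and -0.35 in Het and 0.17, 0.09 and 0.34 in WT islets. Not every library correlated best with its own number. With 3 libraries per group these values cannot decide whether the numbers mark pairs, and the main model did not use them. Me3, with 16 to 93 reads per library, is the gene whose precision depth limits most, and counting error alone does not cover the spread between islets.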

Other observations

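Pdk1 had the largest within-group SD of the 32 genes on the log2(CPM + 1) scale, which damps low genes such as Me3 (edgeR SE of 0.32 to 0.33 with cytokines, against 0.23 to 0.24 for Pdk1). Its deviations from group means were set against those of the 35 further genes, a relation looked at after seeing the data. Over 18 libraries they ran with those of Ldha, lactate dehydrogenase A (Pearson r = 0.77, Spearman rho = 0.68, permutation p = 0.0238 and 0.0261, permuted within groups), and r was 0.60 without the 2 libraries farthest from the median. They ran with those of Acss1 (r = 0.73, rho = 0.68, permutation p = 0.0165) and against those of Lipt1 (r = -0.78, rho = -0.72, permutation p = 0.0115). None of the 35 relations passed after Benjamini-Hochberg adjustment (0.208 for each of these values of r). The libraries share the depth and cell make-up of their islets in both genes, and the part of these was not tested.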
